A study of Mus musculus with 18 samples.

Results

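In mouse liver, 10 genes of hepatic stellate cells and the extracellular matrix were followed: the fibrillar collagens Col1a1, Col1a2 and Col3a1, the proteoglycans Dcn and Lum, the glycoproteins Fn1 and Mgp, the protease inhibitor Timp1, and the pericyte and muscle genes Rgs5 and Des. They were taken by symbol from the count table and are 10 of its 24394 usable gene symbols. The measurement was 3′ tag sequencing of polyadenylated RNA, which counts 1 stretch near the end of each transcript, in 18 livers in 3 groups of 6. The first group held tumour-bearing mice of genotype Alb-Cre+/+ STAT3f/f, here called Stat3-deleted. Alb-Cre is active in hepatocytes, so in this model stellate cells, endothelium and immune cells are not the cells in which Cre is driven. The second group held tumour-bearing WT mice and the third control WT mice. The tumour was PDAC (pancreatic ductal adenocarcinoma) from the line PDA.69, which the labels describe as KPC derived and low in T cells, and which they list for the control livers as well. Site and time of implantation, sex and age were not given, no liver was both Stat3-deleted and tumour-free, and nothing says that livers were paired across groups.

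Stellate cells lie between the endothelium and the hepatocytes, store vitamin A and, in injured liver, become contractile cells that secrete collagen. Fibrillar collagen is spun from collagen chains, spaced by small leucine-rich proteoglycans and removed by metalloproteinases, which TIMP proteins block. Not every matrix protein of liver comes from stellate cells: hepatocytes make the fibronectin and vitronectin of plasma. In whole liver, fewer cells of a type and less RNA per cell cannot be told apart.

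Library totals were 7222882 to 9545442 counts for Stat3-deleted livers, 6168658 to 8850200 counts for the tumour-bearing WT group and 5212265 to 7159148 counts for the controls. Stat3 averaged 118 ± 12.8 CPM (the count relative to the TMM-scaled library size) in Stat3-deleted, 213 ± 38.3 in tumour-bearing WT and 112 ± 19.1 in control livers (SD, n = 6 each). The labels do not say which exons are floxed and the assay reads the 3′ end, so these counts do not check the deletion. Of the stellate cell markers, Lrat, which esterifies retinol for storage, averaged 13.6 ± 2.33 CPM in Stat3-deleted, 10.7 ± 2.72 in tumour-bearing WT and 13.98 ± 5.42 in control livers. Reln, another quiescent stellate marker, averaged 26.2 ± 3.78, 21.4 ± 4.92 and 27.1 ± 3.61 CPM in the same 3 groups. Lrat and Reln were added afterwards and edgeR called neither in any comparison. Other quiescent stellate markers, Steap4, Hgf and Cygb among them, ordered the groups otherwise, as given below. Gfap, a stellate marker in rodents, stayed at or under 7 counts in every liver. Within its group, tumour-bearing WT replicate 5 had the lowest level of 7 of the 10 genes, Stat3-deleted replicate 4 of 6 and control replicate 5 of 6.

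All 10 genes passed the filter on low counts, and each was tested in a fit over 11218 genes with edgeR's quasi-likelihood test and Benjamini-Hochberg adjustment. A gene was called at an adjusted p under 0.05. Between tumour-bearing Stat3-deleted and tumour-bearing WT livers, 2 of the 10 fell (Fn1 and Rgs5) and 0 rose, where 3.23% of all genes tested fell and 2.89% rose. The median log2 fold change of the 10 was -0.62, against -0.0339 for all genes tested. Between tumour-bearing WT and control WT livers, 3 of the 10 rose (Timp1, Mgp and Fn1) and 0 fell, where 1.76% of all genes rose and 0.49% fell, and the median was 0.323, against 0.00376 for all genes. Between tumour-bearing Stat3-deleted and control WT livers, Timp1 and Mgp rose and Rgs5 fell, where 2.19% of all genes rose and 2.66% fell, and the median was -0.112, against -0.00873. At an unadjusted p under 0.05 the numbers were 5, 5 and 7 of 10. Each pair of these comparisons shares a group, so they are not independent of each other. The 10 genes were chosen with earlier results of these data known, so their shares and medians beside those of all genes are only descriptive.

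**Figure D1:**
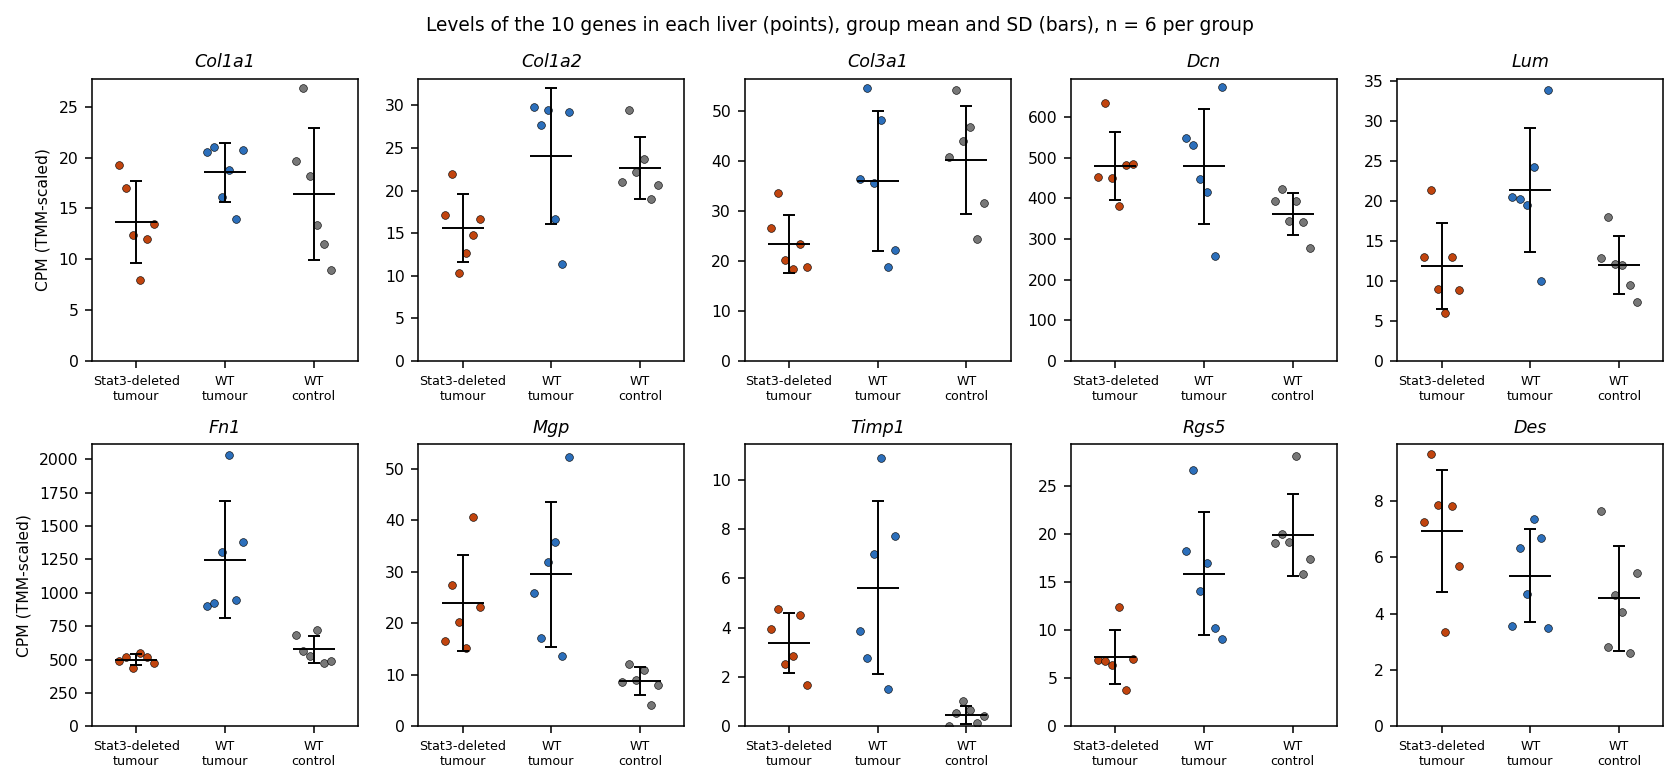
Levels of the 10 genes in CPM (TMM-scaled, linear axes from 0), with 1 point per liver and bars for the group mean and SD, n = 6 per group. Fn1 in tumour-bearing WT livers lay above every liver of the other groups, and Timp1 and Mgp were lowest in the control livers. Rgs5 had its lowest mean in the Stat3-deleted livers, of which replicate 4 lay above tumour-bearing WT replicates 5 and 6.

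The type I and type III collagen genes were not called in any of the 3 comparisons. Col1a1 encodes the more numerous of the chains of type I collagen. It had a lowest, median and highest level of 7.93, 12.9 and 19.2 CPM in Stat3-deleted livers, of 13.96, 19.7 and 21.1 in tumour-bearing WT livers, and of 8.91, 15.8 and 26.8 in control livers. Of the Stat3-deleted livers, 4 of 6 lay below all tumour-bearing WT livers, and the control livers spanned nearly the whole range. The log2 fold change was -0.44 (SE 0.23, adjusted p = 0.308) for Stat3-deleted over tumour-bearing WT, 0.18 (SE 0.23, adjusted p = 0.762) for tumour-bearing WT over control and -0.26 (SE 0.23, adjusted p = 0.560) for Stat3-deleted over control. Col1a1 lies 5.93 Mb from Stat3 on chromosome 11, so a strain difference linked to the floxed allele and the genotype cannot be told apart for it.

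Col1a2 encodes the other chain of type I collagen. Its lowest, median and highest levels were 10.4, 15.8 and 21.9 CPM in Stat3-deleted livers, 11.4, 28.4 and 29.9 in tumour-bearing WT livers, and 19.05, 21.6 and 29.5 in control livers. The tumour-bearing WT livers were split, with replicates 4 and 5 at 16.7 and 11.4 CPM and the other 4 at 27.7 CPM or more. Of the Stat3-deleted livers, 5 of 6 lay below all control livers. Stat3-deleted over tumour-bearing WT gave -0.62 (log2, SE 0.22, adjusted p = 0.0962), tumour-bearing WT over control 0.08 (SE 0.21, adjusted p = 0.890), and Stat3-deleted over control -0.54 (SE 0.22, adjusted p = 0.153).

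Col3a1 encodes the single chain type of type III collagen, the finer fibres of the liver's reticulin network. It ran over 18.5, 21.8 and 33.6 CPM (lowest, median, highest) in Stat3-deleted livers, 18.8, 36.1 and 54.7 in tumour-bearing WT livers, and 24.4, 42.5 and 54.3 in control livers. The 3 groups overlapped, and 4 of 6 Stat3-deleted livers were below all control livers. Its log2 fold change was -0.62 (SE 0.24, adjusted p = 0.142) for Stat3-deleted over tumour-bearing WT, -0.16 (SE 0.24, adjusted p = 0.789) for tumour-bearing WT over control, and -0.78 (SE 0.24, adjusted p = 0.0610) for Stat3-deleted over control. This last value was the closest to a call among the collagens, and DESeq2 did call it (-0.77, adjusted p = 0.0291), as did limma voom (-0.78, adjusted p = 0.0154). It also passed without any 1 of 5 livers: Stat3-deleted replicate 2 (adjusted p = 0.0493), tumour-bearing WT replicates 2 (0.0458), 5 (0.0385) and 6 (0.0383), or control replicate 5 (0.0420).

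Between the tumour-bearing groups, leaving out tumour-bearing WT replicate 5 brought collagens past the threshold. Without it, Col1a2 (log2 -0.77, adjusted p = 0.0141) and Col3a1 (-0.75, adjusted p = 0.0431) were called lower in Stat3-deleted than in tumour-bearing WT livers, and together with Lum the number of genes called lower went up to 5 of 10, against 2 with all livers. The summed level of the 3 collagen genes had a median of 49.6 CPM in Stat3-deleted livers (39.1 to 72.5), 82.6 in tumour-bearing WT livers (44.2 to 103) and 82.7 in control livers (55.0 to 111).

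Dcn and Lum, neighbours on chromosome 10 with 47.3 kb between them, encode decorin and lumican, which bind collagen fibrils and set their spacing. Dcn had a lowest, median and highest level of 380.0, 465.8 and 633 CPM in Stat3-deleted livers, 257, 489 and 672 in tumour-bearing WT livers and 279, 368 and 422 in control livers. The Stat3-deleted and tumour-bearing WT livers had nearly the same mean (480 ± 83.7 and 479 ± 141 CPM, SD, n = 6 each), and 5 of 6 Stat3-deleted and 4 of 6 tumour-bearing WT livers lay above all control livers. Neither contrast with the controls passed the test: the log2 fold change was 0.41 (SE 0.18, adjusted p = 0.191) for Stat3-deleted and 0.40 (SE 0.18, adjusted p = 0.261) for tumour-bearing WT livers. Between the tumour-bearing groups it was 0.0034 with a 95% interval of -0.38 to 0.38 and an adjusted p of 0.995.

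Lum passed the test in no comparison either. The 6 Stat3-deleted livers had 5.97, 8.92, 9.04, 12.96, 13.07 and 21.4 CPM from lowest to highest. The lowest, median and highest levels were 9.99, 20.4 and 33.9 CPM in tumour-bearing WT livers and 7.38, 12.1 and 18.05 CPM in control livers. Of the tumour-bearing WT livers, 5 of 6 lay above all control livers, and replicate 5 alone lay among them. The log2 fold change was -0.85 (SE 0.28, adjusted p = 0.0785) for Stat3-deleted over tumour-bearing WT, 0.83 (SE 0.28, adjusted p = 0.127) for tumour-bearing WT over control and -0.01 (SE 0.28, adjusted p = 0.988) for Stat3-deleted over control. The first passed the threshold in DESeq2 (adjusted p = 0.0447), without tumour-bearing WT replicate 5 (-0.99, adjusted p = 0.0235) and without Stat3-deleted replicate 2 (-1.10, adjusted p = 0.0210). The second passed it without tumour-bearing WT replicate 5 (0.98, adjusted p = 0.0455).

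Per 100 Dcn counts of the same library, Lum had 1.57 to 3.39 counts in Stat3-deleted livers (median 2.36), 3.76 to 5.84 in tumour-bearing WT livers (median 4.13) and 2.65 to 4.28 in control livers (median 3.18). This ratio needs no scaling between libraries. The Stat3-deleted and tumour-bearing WT livers did not overlap in it, and tumour-bearing WT replicate 5, low in both genes, had a ratio inside its group's range. The ratio was formed after the levels had been seen and was not tested.

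Fn1 encodes fibronectin, a glycoprotein that binds collagen, fibrin and integrins and which hepatocytes release into plasma. It was the 1 gene of the 10 whose tumour-bearing groups did not overlap. Its lowest, median and highest levels were 435, 503 and 551 CPM in Stat3-deleted livers, 898, 1127 and 2033 in tumour-bearing WT livers, and 474, 546 and 720.5 in control livers. All 6 tumour-bearing WT livers lay above every liver of the other groups, which overlapped each other. Such a gap, with Stat3-deleted livers below, was seen in 1.9% of all genes tested against tumour-bearing WT livers, and tumour-bearing WT livers lay above all controls in 1.05% of genes.

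Fn1 fell to 0.400 times the tumour-bearing WT level in Stat3-deleted livers (log2 -1.32, SE 0.18, adjusted p = 5.54e-05) and rose 2.16-fold in tumour-bearing WT over control livers (log2 1.11, SE 0.18, adjusted p = 0.00082). Stat3-deleted over control livers gave -0.21 (log2, SE 0.18, adjusted p = 0.537). The spread differed as well: the SD was 8.11% of the mean in Stat3-deleted, 35.1% in tumour-bearing WT and 17.8% in control livers.

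Within the tumour-bearing WT group, livers with more Fn1 had more Saa1, the acute-phase serum amyloid A gene of hepatocytes. Replicate 4 had 2033 CPM of Fn1 and 48555 CPM of Saa1, and replicate 1 had 898 and 7264 CPM. Across these 6 livers Pearson's r of the log2 levels was 0.963 (exact permutation p = 0.00556, adjusted p = 0.0417 over 15 relations) and Spearman's rho 0.943 (exact permutation p = 0.0167, adjusted p = 0.125). Without the 2 livers farthest from the median of Fn1, r was 0.818.

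In the control livers the relation had the other sign. There r was -0.913 (exact permutation p = 0.00278, adjusted p = 0.0417), rho was -1.0 (exact permutation p = 0.00278, adjusted p = 0.0417), and r was -0.935 without the 2 farthest livers. In the Stat3-deleted livers r was 0.513 (exact permutation p = 0.247, adjusted p = 0.285) and rho 0.371 (exact permutation p = 0.497, adjusted p = 0.622). The difference between the groups' correlations was not tested.

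**Figure D2:**
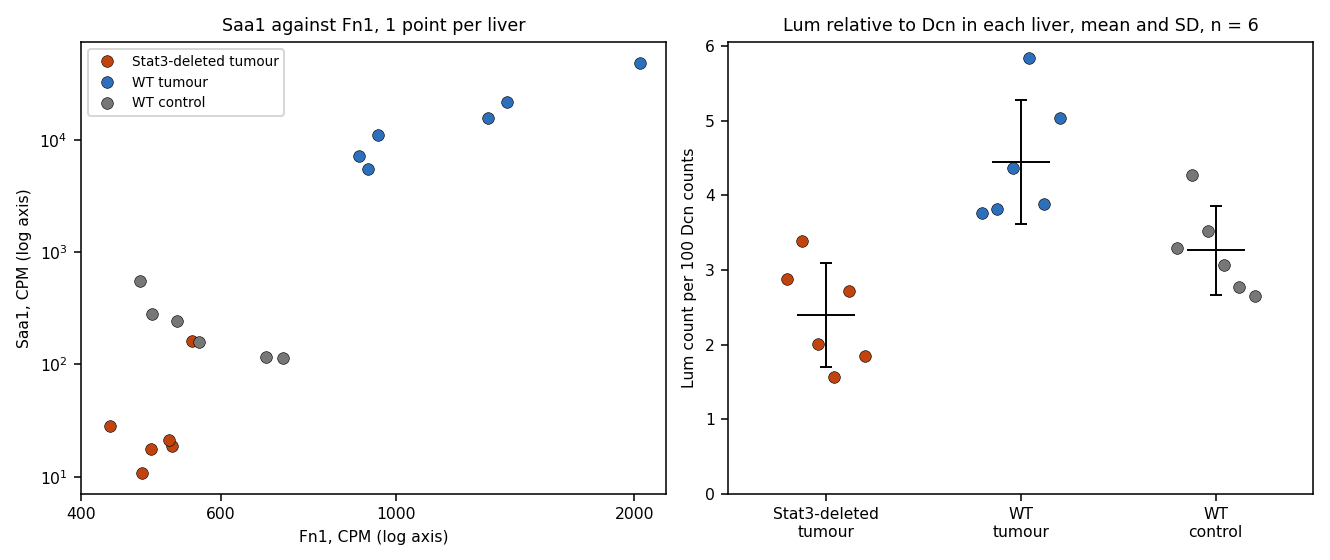
Left, Saa1 against Fn1 in CPM (both axes log), 1 point per liver, with the tumour-bearing WT livers at 898 to 2033 CPM of Fn1 apart from the other groups. Right, Lum counts per 100 Dcn counts in each liver, with bars for mean and SD (n = 6), where the Stat3-deleted livers (1.57 to 3.39) lie below the tumour-bearing WT livers (3.76 to 5.84).

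Mgp encodes matrix Gla protein, a secreted inhibitor of calcification. Its lowest, median and highest levels were 15.3, 21.8 and 40.6 CPM in Stat3-deleted livers, 13.7, 28.9 and 52.4 in tumour-bearing WT livers and 4.11, 8.81 and 12.1 in control livers. Every tumour-bearing liver of either genotype lay above every control liver, while the tumour-bearing groups overlapped. Such a gap above all controls was found in 1.98% of all genes tested for Stat3-deleted and in 1.05% for tumour-bearing WT livers. Mgp rose 2.71-fold in Stat3-deleted over control livers (log2 1.44, SE 0.30, adjusted p = 0.00965) and 3.34-fold in tumour-bearing WT over control livers (log2 1.74, SE 0.30, adjusted p = 0.00181). Stat3-deleted over tumour-bearing WT livers gave -0.30 (log2, 95% interval -0.91 to 0.31, adjusted p = 0.609).

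Timp1 encodes a secreted inhibitor of matrix metalloproteinases and is made by stellate cells and hepatocytes, among others. It was scarce in the control livers, which held 0, 4, 6, 5, 1 and 3 counts in replicates 1 to 6. The Stat3-deleted livers held 13 to 41 counts and the tumour-bearing WT livers 12 to 83. The control liver with 0 counts allows a level of up to 0.431 CPM (3 counts on the same TMM-scaled size, counting error only). The span of Timp1 overlaps that of Syn1 on the opposite strand, for which no liver had more than 5 counts. The spans of Fn1 and Des overlap the antisense genes Apol7d and Gm15179, with at most 7 and 0 counts. Whether the counting used strand is not stated, so reads of each pair could be mixed, which was not tested.

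The lowest, median and highest levels of Timp1 were 1.68, 3.41 and 4.76 CPM in Stat3-deleted livers, 1.54, 5.43 and 10.9 in tumour-bearing WT livers and 0, 0.491 and 1.04 in control livers. All tumour-bearing livers lay above all control livers, a gap found in 1.98% of genes for Stat3-deleted livers. Timp1 rose 7.13-fold in Stat3-deleted over control livers (log2 2.83, SE 0.54, adjusted p = 0.00604) and 11.8-fold in tumour-bearing WT over control livers (log2 3.56, SE 0.54, adjusted p = 0.000314). Between the tumour-bearing groups the value was -0.73 (log2 Stat3-deleted over tumour-bearing WT, 95% interval -1.65 to 0.19, adjusted p = 0.370).

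The promoter of Timp1, the member with the largest fold change here, is given from RefSeq on GRCm38.p6 at chrX:20869916-20870215, plus strand, from 250 bases before to 50 after the gene's start. Capitals mark matches to a CCAAT box (CCAAT on either strand, here ATTGG) and to the Ets core AGGAAG.
Timp1 promoter: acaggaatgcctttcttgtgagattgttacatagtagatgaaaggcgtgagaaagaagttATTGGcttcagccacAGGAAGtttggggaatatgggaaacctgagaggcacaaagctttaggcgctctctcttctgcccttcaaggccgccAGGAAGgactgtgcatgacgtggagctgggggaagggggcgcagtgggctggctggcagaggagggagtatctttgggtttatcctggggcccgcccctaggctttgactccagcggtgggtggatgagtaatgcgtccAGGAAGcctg

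The CCAAT match lies at -190 to -186 from the start and the 3 Ets core matches at -175, -99 and 41. Both strands were searched for the STAT site TTCNNNGAA, the AP-1 site TGANTCA, the CCAAT box, the TATA box TATAAA and the Ets core AGGAAG, and no matches overlapped. In the RefSeq promoters, 5 of the 10 genes had an entry (Col1a2, Col3a1, Timp1, Rgs5 and Des). The letters of the STAT and AP-1 sites occurred in none of these 5 windows, and in 8.3% and 7.81% of all 32851 promoters. Only exact matches were counted, so near matches, such as TGAGTAA in the Timp1 window, were left out. CCAAT occurred in 37.4% and AGGAAG in 35.4% of all promoters, so the matches in Timp1 are common ones.

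Rgs5 encodes a regulator of G protein signalling that marks pericytes and smooth muscle. Its lowest, median and highest levels were 3.84, 6.86 and 12.4 CPM in Stat3-deleted livers, 9.08, 15.6 and 26.7 in tumour-bearing WT livers and 15.9, 19.2 and 28.2 in control livers. The Stat3-deleted livers lay below all control livers, a gap found in 1.84% of genes, and 5 of 6 lay below all tumour-bearing WT livers. The exception was Stat3-deleted replicate 4 at 12.4 CPM, which lay above tumour-bearing WT replicates 5 and 6.

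Rgs5 fell to 0.454 times the tumour-bearing WT level in Stat3-deleted livers (log2 -1.14, SE 0.26, adjusted p = 0.00894) and to 0.362 times the control level (log2 -1.46, SE 0.26, adjusted p = 0.0032). Tumour-bearing WT over control livers gave -0.33 (log2, SE 0.25, adjusted p = 0.557). Its promoter, one of the 5 with an entry, lies at chr1:169655251-169655550, plus strand, on GRCm38.p6 (RefSeq), and capitals mark its 1 CCAAT box match, at -67 to -63. It is shown because Rgs5 was the member that fell in Stat3-deleted livers against both WT groups.
Rgs5 promoter: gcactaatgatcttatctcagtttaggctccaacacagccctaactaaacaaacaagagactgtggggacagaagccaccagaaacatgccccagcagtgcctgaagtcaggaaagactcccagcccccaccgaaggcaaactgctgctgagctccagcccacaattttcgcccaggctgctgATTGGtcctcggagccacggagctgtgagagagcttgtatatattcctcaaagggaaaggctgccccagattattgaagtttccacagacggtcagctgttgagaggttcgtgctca

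Des encodes desmin, an intermediate filament protein of muscle and, in rodents, of stellate cells. Its lowest, median and highest levels were 3.33, 7.51 and 9.65 CPM in Stat3-deleted livers, 3.48, 5.51 and 7.35 in tumour-bearing WT livers and 2.60, 4.36 and 7.62 in control livers. The 3 groups overlapped and no comparison was called. The log2 fold change was 0.37 (SE 0.29, adjusted p = 0.516) for Stat3-deleted over tumour-bearing WT, 0.24 (SE 0.29, adjusted p = 0.734) for tumour-bearing WT over control and 0.61 (SE 0.29, adjusted p = 0.231) for Stat3-deleted over control. Des and Rgs5, both genes of contractile perivascular cells, thus had fitted changes of opposite sign between Stat3-deleted livers and both WT groups, of which that of Rgs5 passed the test.

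**Figure D3:**
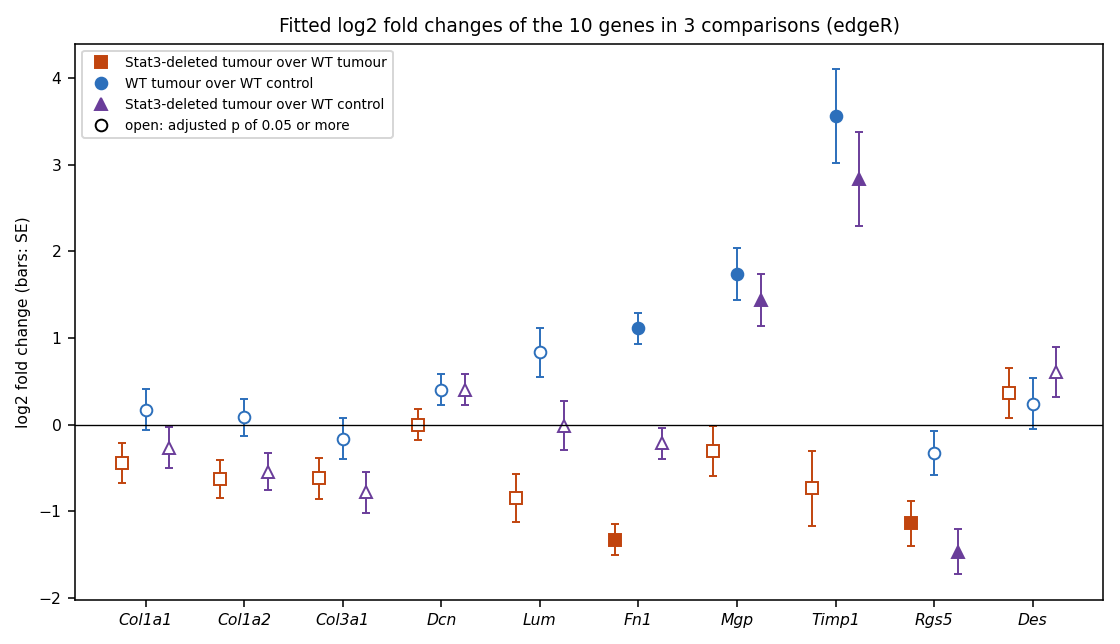
Log2 fold changes of the 10 genes with SE in the 3 comparisons (edgeR), filled where the adjusted p was under 0.05 and open otherwise. Timp1 and Mgp were called higher in both tumour-bearing groups over controls, Fn1 higher in tumour-bearing WT and lower in Stat3-deleted over tumour-bearing WT livers, and Rgs5 lower in Stat3-deleted livers against both WT groups.

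The label numbers of the WT livers fell into a lower and a higher run with 3 livers of each WT group in both, and what the numbers record is not stated. Tumour-bearing WT over control livers gave log2 values of 3.10 and 3.97 for Timp1 in the lower and the higher run, 1.33 and 2.13 for Mgp, and 0.81 and 1.37 for Fn1. None of the 3 genes was called with 3 livers a group (adjusted p 0.0634 to 0.166), and their direction held in both runs. The numbers of the Stat3-deleted livers lie outside both runs, so number run and genotype cannot be told apart.

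The other genes of the matrix and of the cells that make it were counted in 13 lists, without the 10 genes above. Of 15 further collagens tested, 1 fell in Stat3-deleted against tumour-bearing WT livers and 0 rose (median log2 -0.116). This was Col15a1, a collagen of basement membrane zones, with 0.819 to 1.81 CPM in Stat3-deleted, 2.72 to 10.2 in tumour-bearing WT livers and 1.22 to 4.17 in control livers (log2 -2.54, SE 0.34, adjusted p = 3.84e-05). It was also the 1 collagen called higher in tumour-bearing WT over control livers (log2 1.43, SE 0.32, adjusted p = 0.0150), which did not pass once tumour-bearing WT replicate 4 was left out (adjusted p = 0.0527). Nor did it pass with the run of label numbers as a block (adjusted p = 0.0568). In Stat3-deleted over control livers 0 of 15 were called by edgeR, with 2 at an unadjusted p under 0.05 and 1 called by DESeq2. Of 5 further small leucine-rich proteoglycans, 0 were called in any comparison by edgeR, DESeq2 or limma voom, and 0 to 1 had an unadjusted p under 0.05.

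Among 23 further matrix glycoproteins, 3 fell and 1 rose in Stat3-deleted against tumour-bearing WT livers (median -0.259), 2 rose and 0 fell in tumour-bearing WT against control livers (median 0.282), and 2 rose and 0 fell in Stat3-deleted against control livers (median -0.129). Vtn, the plasma glycoprotein vitronectin of hepatocytes, was, like Fn1, highest in tumour-bearing WT livers, with 1515 ± 142 CPM in Stat3-deleted, 2514 ± 770 in tumour-bearing WT and 1451 ± 216 in control livers. It fell by 0.73 on the log2 scale in Stat3-deleted against tumour-bearing WT livers (adjusted p = 0.0109) and rose by 0.79 in tumour-bearing WT against control livers (adjusted p = 0.0121). The second call was lost when the 2 WT groups were fitted alone (adjusted p = 0.0672) and with the run of label numbers as a block (0.0645). Vtn lies 22.4 Mb from Stat3.

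Tgfbi, a secreted matrix protein first found as induced by TGF-beta, was, like Mgp, higher in both tumour-bearing groups than in controls. It had 46.5 to 76.3 CPM in Stat3-deleted, 42.2 to 78.1 in tumour-bearing WT livers and 25.5 to 41.0 in control livers, so that both tumour-bearing groups lay above all controls (log2 0.97, adjusted p = 0.00318, and log2 0.85, adjusted p = 0.00722). The second value was 0.66 with library totals in place of TMM (adjusted p = 0.0528). A gap above all controls was found in 1.98% of all genes tested for Stat3-deleted and in 1.05% for tumour-bearing WT livers. Emilin1, a glycoprotein of elastic fibres, rose in Stat3-deleted livers against tumour-bearing WT (log2 0.88, adjusted p = 0.0149) and control livers (1.24, adjusted p = 0.00333). Spp1, the secreted phosphoprotein osteopontin of bile duct cells and macrophages, fell in Stat3-deleted against tumour-bearing WT livers (log2 -2.06, adjusted p = 0.00139). Fbln2 was the remaining glycoprotein called lower there (-1.56, adjusted p = 0.0295), and leaving out any 1 of 6 livers (Stat3-deleted replicates 1, 2, 5 and 6, tumour-bearing WT replicates 2 and 6) ended its call (adjusted p 0.0585 to 0.0689).

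Of 19 enzymes of collagen maturation tested, Loxl4, a lysyl oxidase that crosslinks collagen, was the 1 called in Stat3-deleted against tumour-bearing WT livers, with 0.891 ± 0.630 CPM, against 4.56 ± 2.10 (log2 -2.32, SE 0.45, adjusted p = 0.00233). In tumour-bearing WT against control livers 0 of 19 were called by edgeR, DESeq2 or limma voom (3 at an unadjusted p under 0.05), and their median was 0.347. In Stat3-deleted against control livers edgeR called 0, and DESeq2 and limma voom 1 each (1 at an unadjusted p under 0.05). Of 11 matrix proteases, Mmp15 was called lower in tumour-bearing WT than in control livers (-1.27, adjusted p = 0.0155), which did not pass once tumour-bearing WT replicate 3 was left out (adjusted p = 0.0550). This call was also lost with the 2 WT groups fitted alone (adjusted p = 0.0598) and with the run of label numbers as a block (0.0678). Mmp9 was called lower in Stat3-deleted than in tumour-bearing WT livers (-1.45, adjusted p = 0.0426), and leaving out any 1 of 8 livers (Stat3-deleted replicates 1, 2, 4, 5 and 6, tumour-bearing WT replicates 3 and 4, control replicate 1) ended that call (adjusted p 0.0503 to 0.167).

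Among 5 further inhibitors, Timp3 and Serpina3n moved. Timp3, a TIMP that stays bound to the matrix, went the other way from Timp1, with 21.6 to 32.2 CPM in Stat3-deleted, 20.7 to 40.4 in tumour-bearing WT livers and 40.4 to 51.2 in control livers. The Stat3-deleted livers lay below all controls, a gap found in 1.84% of all genes tested. The highest tumour-bearing WT liver and the lowest control liver both had 40.4 CPM. The log2 fold change was -0.71 (adjusted p = 0.0138) for Stat3-deleted livers. For tumour-bearing WT livers the value was -0.62 (adjusted p = 0.0423), and leaving out 1 liver ended the call for 11 of the 18 livers, all but Stat3-deleted replicates 1, 2, 4 and 6, tumour-bearing WT replicates 2 and 6 and control replicate 3 (adjusted p 0.0520 to 0.124). Serpina3n, a serine protease inhibitor of the acute phase, fell by 2.29 on the log2 scale in Stat3-deleted against tumour-bearing WT livers (adjusted p = 0.000101) and rose by 2.37 in tumour-bearing WT against control livers (adjusted p = 0.000152).

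Signalling genes of the fibrotic response were counted in 3 lists. Of 21 genes of TGF-beta signalling, edgeR called 0 in each comparison, with 5, 1 and 5 at an unadjusted p under 0.05 in the order Stat3-deleted against tumour-bearing WT, tumour-bearing WT against control, and Stat3-deleted against control, and DESeq2 called 1, 1 and 1 and limma voom 1, 0 and 2. Of 17 matrix receptors edgeR also called 0, with 5, 2 and 2 at an unadjusted p under 0.05, DESeq2 called 1, 0 and 1 and limma voom 2, 0 and 2. Of 4 genes of PDGF signalling, the ligand genes Pdgfa and Pdgfc fell in Stat3-deleted against tumour-bearing WT livers. Pdgfa averaged 6.99 ± 1.46 CPM in Stat3-deleted, 13.2 ± 2.60 in tumour-bearing WT and 13.7 ± 2.16 in control livers, and it was lower in Stat3-deleted than in every WT liver of either group (log2 -0.91, adjusted p = 0.0030, and -0.97, adjusted p = 0.00499). Pdgfc averaged 7.44 ± 1.25, 16.6 ± 7.26 and 10.9 ± 2.84 CPM in the same order of groups, with log2 -1.16 (adjusted p = 0.0059) against tumour-bearing WT and -0.54 (adjusted p = 0.216) against control livers. Of all genes tested, Stat3-deleted livers lay below all tumour-bearing WT livers in 1.9% and below all controls in 1.84%.

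**Figure D4:**
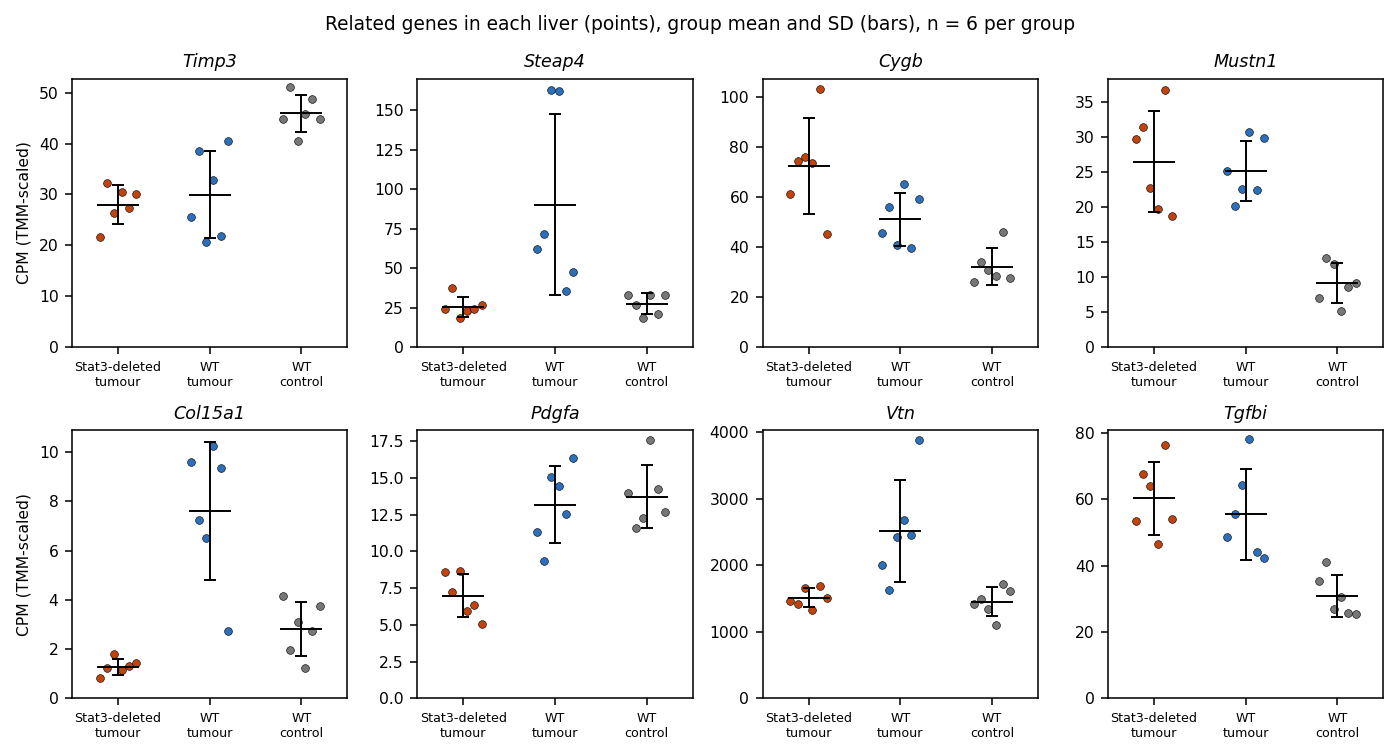
Levels in CPM (TMM-scaled, linear axes from 0) of 8 genes of the related lists, with 1 point per liver and bars for mean and SD, n = 6 per group. Timp3 was lower and Tgfbi and Mustn1 were higher in both tumour-bearing groups than in controls, while Steap4, Vtn and Col15a1 stood higher in tumour-bearing WT livers and Pdgfa lower in Stat3-deleted livers.

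The cell types that could hold these genes were followed by their markers. Of 19 further markers of quiescent stellate cells, 2 fell and 0 rose in Stat3-deleted against tumour-bearing WT livers (median 0.295), 1 rose in tumour-bearing WT against control livers (median -0.0799) and 1 rose in Stat3-deleted against control livers (median -0.0463). In the same order of comparisons, DESeq2 called 0, 2 and 3 of them higher and limma voom 2, 2 and 4, and each tool called 2, 0 and 0 lower. Steap4, a metalloreductase that hepatocytes express as well, averaged 25.5 ± 6.44 CPM in Stat3-deleted, 90.2 ± 57.3 in tumour-bearing WT and 27.5 ± 6.56 in control livers (log2 -1.82, adjusted p = 0.000594, and 1.71, adjusted p = 0.00247). Cygb, the stellate cell globin, averaged 72.3 ± 19.2, 51.1 ± 10.6 and 32.0 ± 7.35 CPM in the same groups and rose in Stat3-deleted against control livers (log2 1.17, SE 0.19, adjusted p = 0.000977). Cygb lies 15.7 Mb from Stat3. Hgf, a growth factor for hepatocytes, was the other marker called lower in Stat3-deleted than in tumour-bearing WT livers (-0.92, adjusted p = 0.0338), and leaving out any 1 of 8 livers (Stat3-deleted replicates 1, 2, 3 and 6, tumour-bearing WT replicates 1 to 4) ended that call (adjusted p 0.0535 to 0.0851).

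Of 15 contractile and activation genes, Tpm1, a tropomyosin, and Spp1 fell in Stat3-deleted against tumour-bearing WT livers (Tpm1 log2 -0.58, adjusted p = 0.0143), and 0 were called by edgeR in either comparison with the controls, where 2 each had an unadjusted p under 0.05 and DESeq2 called 2 in tumour-bearing WT against control livers. Acta2, smooth muscle actin, had 3.79 to 8.52 CPM in Stat3-deleted, 4.46 to 16.9 in tumour-bearing WT livers and 3.70 to 16.4 in control livers. Of 8 further pericyte and smooth muscle markers, Mustn1, a small nuclear protein of muscle and bone, rose in both tumour-bearing groups over controls. It had 26.5 ± 7.22 CPM in Stat3-deleted, 25.2 ± 4.29 in tumour-bearing WT and 9.10 ± 2.86 in control livers (log2 1.55, adjusted p = 0.000392, and 1.47, adjusted p = 0.000197). Between the tumour-bearing groups, where Rgs5 fell, 0 of these 8 had an unadjusted p under 0.05 and 0 were called by edgeR, DESeq2 or limma voom. Cspg4, another pericyte marker, had at most 2 counts in any liver.

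Of 12 portal fibroblast and mesothelial markers, Dpt (-1.19, adjusted p = 0.0297) and Gas1 (-1.09, adjusted p = 0.0394) were called lower in Stat3-deleted than in control livers. Leaving out 1 of 5 livers ended the call of Dpt (Stat3-deleted replicates 1, 3 and 5, control replicates 1 and 5) and 1 of 8 that of Gas1 (Stat3-deleted replicates 1, 2, 3 and 5, control replicates 1, 3, 4 and 5), with adjusted p of 0.0568 to 0.0972. Fbln2 of the glycoproteins was the 1 called in Stat3-deleted against tumour-bearing WT livers. In tumour-bearing WT against control livers 0 of 12 were called by edgeR, DESeq2 or limma voom, with 3 at an unadjusted p under 0.05.

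Markers of other cells were counted as well. The 12 ductal markers, which mark bile ducts and ductal tumours alike and of which 7 to 8 averaged under 1 CPM in a group, summed to 29.0 to 46.7 CPM in Stat3-deleted, 45.8 to 153 in tumour-bearing WT livers and 31.3 to 57.5 in control livers. Of the 4 tested, Sox9 (log2 -1.35, adjusted p = 0.000883) and Spp1 fell in Stat3-deleted against tumour-bearing WT livers, and Sox9 rose in tumour-bearing WT against control livers (1.31, adjusted p = 0.00276). Sox9 lies 11.8 Mb from Stat3. The epithelial markers Epcam and Krt19 were low in every group, with means of 0.920, 0.918 and 1.12 CPM for Epcam and 3.11, 4.71 and 2.19 CPM for Krt19 in Stat3-deleted, tumour-bearing WT and control livers. The 11 Kupffer cell markers summed to 858 to 2294 CPM in Stat3-deleted, 850 to 2031 in tumour-bearing WT livers and 485 to 1256 in control livers, with 4 called higher in Stat3-deleted (Vsig4, Cd5l, Cd68 and C1qc) and 1 in tumour-bearing WT livers (Vsig4) over controls. All such sums weigh abundant genes most: in Stat3-deleted livers Cd5l had 219 to 669 CPM and Cd68 12.5 to 27.7. The 12 endothelial markers summed to 329 to 456, 326 to 421 and 255 to 342 CPM in Stat3-deleted, tumour-bearing WT and control livers, with Stab2 and Clec4g called higher in Stat3-deleted over control livers. Between the tumour-bearing groups, edgeR, DESeq2 and limma voom each called 0 of the 11 Kupffer cell and 0 of the 12 endothelial markers. There 1 and 2 of them had an unadjusted p under 0.05. Hepatocyte markers, 12 in number, had sums of 118455 to 136833 CPM in Stat3-deleted livers, above every control liver (78511 to 105836). The sums of the tumour-bearing WT livers (78785 to 154842 CPM) overlapped both ranges. Of the hepatocyte markers, edgeR called Ttr higher in Stat3-deleted livers against both WT groups. The call against tumour-bearing WT livers was lost with those 2 groups fitted alone (adjusted p = 0.0520). For Stat3-deleted against control livers, DESeq2 called 6 Kupffer cell, 2 endothelial and 2 hepatocyte markers. There limma voom called 7, 2 and 5 of them. Each of these calls by edgeR in Stat3-deleted against control livers was lost without Stat3-deleted replicate 5 and without control replicate 4, among others. That of Vsig4 in tumour-bearing WT livers was lost without tumour-bearing WT replicates 3 and 4 and control replicates 1, 4 and 6. Where a call was lost, the adjusted p was 0.0504 to 0.119. Of 14 exocrine pancreas markers 13 averaged under 1 CPM in each group. The 14 had median sums of 73.1, 45.7 and 91.6 CPM in Stat3-deleted, tumour-bearing WT and control livers. The 1 marker tested was not called, with log2 -0.881 in tumour-bearing WT against control and 0.753 in Stat3-deleted against tumour-bearing WT livers. Both had an unadjusted p under 0.05. Of the 3 red cell and blood markers tested edgeR called 0 (DESeq2 called 1 in Stat3-deleted against control livers, and 1 had an unadjusted p under 0.05 there). The part of these cells in the changes of the 10 genes was not tested.

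Over all 18 livers, the genes whose log2 levels followed Fn1 most closely were Apcs, Fgg, C4bp, Itih3 and C3, with Pearson's r of 0.97, 0.96, 0.95, 0.94 and 0.93 among 8095 genes ranked. For Timp1 they were Slpi, Socs3, Mustn1, Il18bp and Clca3a1, with r of 0.93, 0.88, 0.88, 0.87 and 0.87. For Col1a1 they were Ccdc80, Ccdc122, Lims1, Rnaseh2b and Tpd52, with r of 0.80, 0.78, 0.76, 0.76 and 0.75. The livers form 3 groups, so these r reflect differences between groups as well as within them. Within groups, Dcn and Lum had r of 0.905 in Stat3-deleted, 0.896 in tumour-bearing WT and 0.918 in control livers (exact permutation p = 0.0444, 0.0528 and 0.0111, adjusted p = 0.146, 0.146 and 0.0556) and rho of 0.657, 0.657 and 0.829 (exact permutation p = 0.175, 0.175 and 0.0583, adjusted p = 0.263, 0.263 and 0.219). Without the 2 livers farthest from the median of Dcn, r was -0.0327, -0.565 and 0.662, so the relation rests on those livers in the tumour-bearing groups. The other pairs computed were Col1a1 with Col1a2, Col1a1 with Col3a1 and Timp1 with Saa1. None of them had an r or rho with an adjusted p under 0.05 in any group. Timp1 and Saa1 had r of 0.792 in tumour-bearing WT livers (exact permutation p = 0.0583, adjusted p = 0.146), 0.000152 in Stat3-deleted and -0.104 in control livers.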

How the data were processed

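The authors deposited 1 table of raw counts per gene symbol, not normalized, with 18 columns matched to the livers by the number in their labels (0 columns unmatched). Per the labels' protocols, livers were kept in TRIzol, RNA was purified on RNeasy columns and libraries were made with Lexogen's QuantSeq 3′ FWD kit. Per the submitters' processing notes, STAR and mm10 were used; for the counting tool, the annotation and the use of strand these sources give nothing. Of 24421 symbols, 27 had become spreadsheet dates (0.103 to 0.166% of counts) and were left out.

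Totals of 5212265 to 9545442 counts per library went into R 4.3.3 with edgeR 4.0.16: TMM, filterByExpr (11218 genes), and a quasi-likelihood fit with 1 coefficient per group over all 18 libraries (15 residual degrees of freedom), tested two-sided for 3 contrasts. P-values were adjusted by Benjamini-Hochberg across the 11218 genes and called under 0.05. The SE was the log2 fold change, without its sign, over the square root of the test's F statistic. Intervals of fold changes are 95% intervals from that SE and Student's t with 15 degrees of freedom, so they need not match the p-values. Counts of a list leave out the 10 genes. P-values set group differences against the spread between livers, which the labels do not tie to litters or cages. Replicates of a group differed beyond sampling noise (lowest chi-square per degree of freedom 8.26 over 45 pairs).

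Alternatives were DESeq2 1.42.0, limma 3.58.1 voom with quality weights, RLE size factors, library totals, no filter, at least 1 CPM in 6 libraries, the 2 groups alone, a block for the replicate number or for the run of label numbers, fits within runs, and leaving out each library. Correlations used exact two-sided permutations. The procedure was tested on simulated data. The genes and lists were chosen with earlier results of these data known. Named genes are the 10, from each list up to 4 called genes of smallest adjusted p, and for Col1a1, Timp1 and Fn1 the 5 genes of mean at least 5 CPM with the highest r over 18 libraries (log2 CPM, prior count 2), without predicted genes; levels of markers such as Lrat, Reln, Gfap, Acta2, Epcam and Krt19 were added afterwards. Python 3.11.15 with pandas 2.3.3, numpy 2.4.6, scipy 1.17.1 and matplotlib 3.10.9 made the summaries and plots.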

Additional observations from a re-analysis of the deposited data

Results flagged for a closer look

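Of 30 groups of 6 livers (10 genes in 3 groups), 2 had a liver far from the other 5 by Dixon's test, where chance gives about 1 in 20. Both were high values of Rgs5: 12.4 CPM in Stat3-deleted replicate 4, with a gap of 0.634 of its group's range, and 28.2 CPM in control replicate 4, with a gap of 0.664 (critical value 0.625). Rgs5 stayed called lower without the first liver (log2 -1.36 against tumour-bearing WT, -1.69 against control), and without the second (-1.14 and -1.35).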

How the results depend on the processing

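Of 810 refitted fold changes of the 10 genes, 774 kept their direction and their side of the threshold, and 6 calls were lost, all of them in fits within a run of label numbers (3 livers a group). No left-out library ended a call of Timp1, Mgp, Fn1 or Rgs5 (adjusted p at most 0.0332).

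Tumour-bearing WT against control: the genes called numbered 252, against 462 with DESeq2, 128 with the 2 groups alone, 126 with the run as a block, and 38 and 50 within the lower and the higher run, where 0 and 0 of the 10 genes were called higher. Leaving out 1 library gave 132 (without tumour-bearing WT replicate 3) to 462 (without tumour-bearing WT replicate 1), and 3 to 4 of the 10 genes. Counts past 1.5 times also came without tumour-bearing WT replicate 4 (139) and without control replicates 4 (163) and 6 (159). Signs turned for Col1a1 (-0.0199) and Col1a2 (-0.10) with library totals, for Col1a1 (-0.17), Rgs5 (0.0110) and Des (-0.0540) in the lower run, and for Col1a2 (-0.15) in the higher run, none of them called.

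Stat3-deleted against tumour-bearing WT: 686 genes, against 1097 with limma voom and 469 to 906 with 1 library left out, with 2 to 5 of the 10 genes lower. Dcn ranged over -0.12 to 0.13.

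Stat3-deleted against control: 544 genes, against 860 with DESeq2, 1318 with limma voom and 894 with the 2 groups alone. Leaving out 1 library gave 258 to 783 genes, fewest without Stat3-deleted replicates 5 (258), 2 (272) and 3 (279) and control replicates 4 (295), 1 (342) and 5 (361), with 1 to 2 of the 10 genes lower; Lum ranged over -0.28 to 0.13. Of the 10 genes, 2 were called lower with DESeq2, limma voom, the 2 groups alone and the replicate block, the second being Col3a1.

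Library totals in place of TMM moved the median of all genes by 0.0683, -0.192 and -0.121 (log2) in the order Stat3-deleted against tumour-bearing WT, tumour-bearing WT against control, Stat3-deleted against control. The share of calls that were higher was then 61.1, 39.4 and 27.2%, against 47.2, 78.2 and 45.2% with TMM. Between livers of the same replicate number, correlations of deviations were -0.126 to 0.309, and the own number was the best match for 5 of 36. Replicate 5 had 0.167 to 0.309. The label numbers of tumour-bearing WT and control livers of the same replicate number mostly follow each other directly. These values cannot settle whether livers were paired by cage, litter or handling. With the replicate block, 219 genes were called in tumour-bearing WT against control, and the calls of Timp1 (adjusted p = 0.00209), Mgp (0.00962) and Fn1 (0.00112) remained. Depth limits Timp1 in the control livers, with 0 to 6 counts a library.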
